A study of Mus musculus with 6 samples.

Results

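The receptors described here are 9 mouse genes through which macrophages sense chemokines and other chemoattractants, namely Ccr1, Ccr2, Ccr7, Cx3cr1, Cxcr4, Ccrl2, C5ar1, Fpr1 and Fpr2. They were found by their gene names among the 55681 non-control probes of a mouse Agilent microarray, which carry 36095 distinct names, and 10 probes matched, with 2 for Cx3cr1 and 1 for each of the others. Bone marrow-derived macrophages of C57BL/6 mice were grown for 7 days in medium with L929-conditioned medium, the source of the growth factor M-CSF. They were then either exposed to 100 µM ADP, a nucleotide that cells release on damage or activation, or given the control treatment, and RNA was taken after 6 h. Each group had 3 arrays, and the series' design text describes 3 independent experiments with different donors. Both groups were otherwise alike in strain, medium and time, and no genetic change is named in the labels.

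Receptors of this kind sit in the cell membrane and couple mainly to inhibitory G proteins of the Gi family. Ligand binding frees the G-protein beta-gamma dimer, which engages phosphoinositide 3-kinase gamma and, through Rac, drives movement toward the source of the ligand, while receptor kinases, arrestins and RGS proteins end the signal. In the mononuclear phagocyte lineage, Ccr2 is known for bringing monocytes out of the marrow and into tissue, Cx3cr1 for monocyte survival and patrolling, and the complement and formyl peptide receptors for the response to microbes and dying cells.

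Signals are the scanner's background-subtracted intensities. A level is the log2 of a signal minus the log2 of that array's 75th percentile over non-control spots, and a difference is the mean level with ADP minus the mean level of the controls. Between 50.3% and 51.9% of spots were well above background, and no spot was saturated. The 6 arrays lay on 2 slides, each with both groups: controls 1 and 2 with ADP 1, and control 3 with ADP 2 and ADP 3. The 75th percentiles were 455, 464 and 455 on slide 1 and 549, 545 and 549 on slide 2, in that order. Slide 2 was thus the brighter before scaling, and it held more ADP than control arrays. Across all tested features, arrays of the same group correlated at 0.996 to 0.997 when they shared a slide. On different slides they correlated at 0.988 to 0.990. The difference of each tested receptor is therefore also given within each slide and with the slide as a block. Each value within a slide rests on 1 array of 1 group, ADP 1 on slide 1 and control 3 on slide 2. A feature is a gene, represented by its brightest retained probe, or a probe with no gene name. Macrophage markers were present in every array: all 8 of those listed, among them Csf1r, the M-CSF receptor, were well above background on all 6 arrays. Summed linear levels were 974 to 1331 in the controls and 1177 to 1605 with ADP. The median difference of these markers was 0.28 over all arrays and 0.07 with the slide as a block. It was 0.11 within slide 1 and -0.02 within slide 2.

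With limma's moderated test and Benjamini-Hochberg adjustment, 0 of 19574 features (0%) passed an adjusted p of 0.05, and the smallest adjusted p was 0.260. At an unadjusted p below 0.05, 12.7% of features passed (1282 higher and 1209 lower with ADP, or 1228 and 326 with the signals left unscaled), and in 19.4% the groups did not overlap. Of the 9 receptors, 8 were tested, and all 8 were well above background on all 6 arrays. Ccr7 and Ccrl2 read higher with ADP and Cx3cr1 and C5ar1 lower at an unadjusted p below 0.05, which is 4 of 8. Without ADP 3 only Cx3cr1 was left, 1 of 8, beside 1163 of 19574 features. Without control 1 Cx3cr1 and Ccr7 were left, 2 of 8, beside 1381 features. Without ADP 1 Cx3cr1 and C5ar1 were left, 2 of 8, beside 2983 features. The groups did not overlap for those 4 and for Fpr1, which is 5 of 8, while Ccr2, Cxcr4 and Fpr2 overlapped. None of the 8 passed the adjusted threshold. With the slide as a block, 24.3% of features had an unadjusted p below 0.05, and 5 of the 8 receptors did, Fpr2 being added. With the slide as a block and intensity-trended, robust variances, 9.91% of features passed an adjusted p of 0.05, and so did 4 of the 8 receptors: Cx3cr1 at 0.0215, C5ar1 at 0.0280, Ccr7 at 0.0365 and Fpr2 at 0.0422. The median difference of the 8 receptors was 0.08 and their median absolute difference 0.26, against 0.00 and 0.16 over all features. Exact permutation of 3 against 3 arrays cannot give a two-sided p below 0.1.

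**Figure D1:**
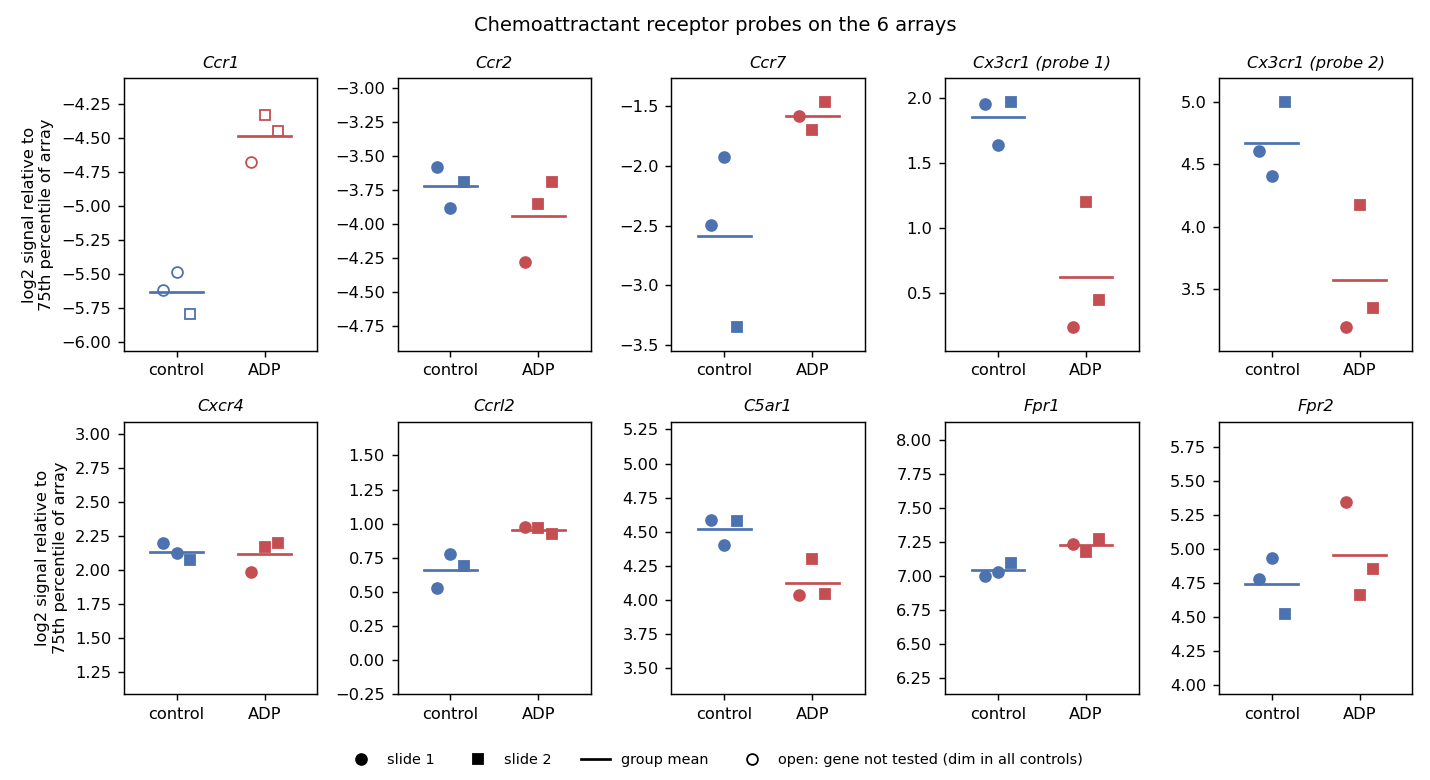
Log2 level of each receptor probe (signal relative to the 75th percentile of its array) on the 3 control and 3 ADP arrays; points are arrays, marker shape is the slide, bars are group means, and open symbols mark Ccr1, which was not tested. Each panel has its own vertical scale. All 3 ADP points lie below all 3 control points for Cx3cr1 and C5ar1, and above them for Ccr1, Ccr7, Ccrl2 and Fpr1.

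Cx3cr1, the receptor for fractalkine (Cx3cl1), had the largest difference of the tested receptors over all 6 arrays with 75th-percentile scaling. Ccr7, described after it, had the larger one in size with unscaled signals, without control 2, without ADP 1 and within slide 2. The brighter Cx3cr1 probe, at chr9:119957811-119957870 of mm9 on the minus strand, gave signals of 11100, 9856 and 17560 in controls 1 to 3 and of 4173, 9819 and 5594 in ADP 1 to 3. On the scaled log2 axis these were levels of 4.61, 4.41 and 5.0 in the controls and of 3.20, 4.17 and 3.35 with ADP. Every ADP array lay below every control array, but ADP 2 lay close to control 2, while ADP 1 and ADP 3 lay much lower. The means were 4.67 ± 0.30 and 3.57 ± 0.52 (SD, n = 3 each), a difference of -1.10 ± 0.29 (SE; 95% interval -1.79 to -0.41), or 2.14-fold lower. The adjusted p in limma was 0.266, and 0.0734 with the slide as a block, where the difference was -1.28 ± 0.23. Within slide 1, with ADP 1 as the only ADP array, the difference was -1.31. Within slide 2 it was -1.24, with control 3 as the only control and with ADP 2 and ADP 3 apart (4.17 and 3.35). Leaving out any 1 array kept the difference between -0.91 and -1.40.

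The second Cx3cr1 probe, at chr9:119959018-119959077 of mm9, measures the same RNA at another place. Its signals were 1765, 1449 and 2149 in the controls and 537, 1249 and 747 with ADP, and the groups again did not overlap. The levels averaged 1.86 ± 0.18 in the controls and 0.63 ± 0.50 with ADP (SD, n = 3 each). The difference was -1.23 ± 0.26 (SE), with an adjusted p of 0.265 in the limma fit over all retained probes. Both probes placed the ADP arrays in the same order, with ADP 2 nearest to the controls.

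**Figure D2:**
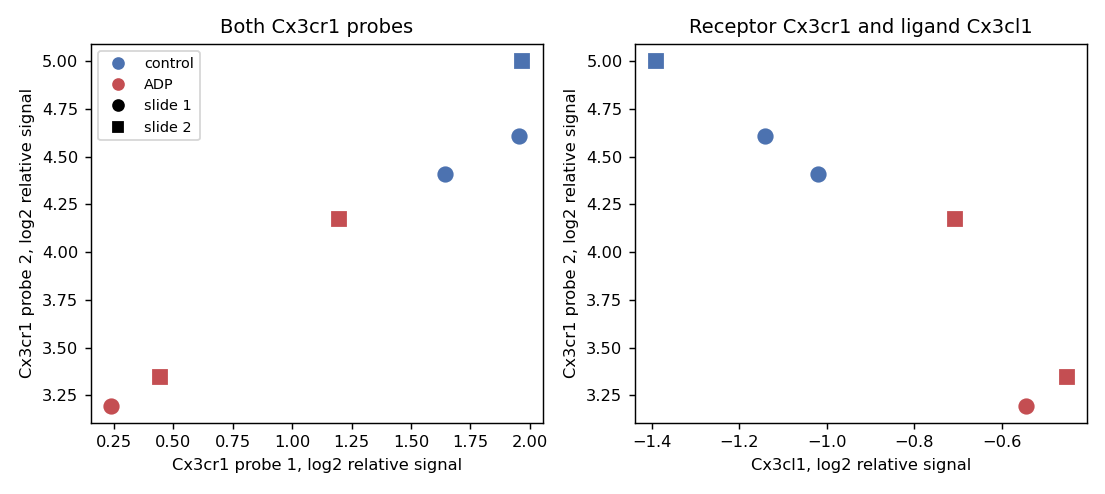
Left, levels of both Cx3cr1 probes on each array; right, level of the brighter Cx3cr1 probe against that of its ligand Cx3cl1; blue is control, red is ADP, and shape is the slide. The ADP arrays lie at lower Cx3cr1 levels (3.20 to 4.17 against 4.41 to 5.0) and at higher Cx3cl1 levels (-0.71 to -0.45 against -1.39 to -1.02).

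The 250 bases upstream of the Cx3cr1 start, from RefSeq (GRCm38.p6, chr9:120068297-120068546, minus strand), are shown because both probes of this gene placed every ADP array below every control. They hold none of the 8 motifs searched on both strands: GGNNTTTCC for NF-kB, TGANTCA for AP-1, TGACGT as the CRE core, TTGCNNAA for C/EBP, GAGGAA for PU.1, GGAAAA for NFAT, GAAANNGAA for ISRE and TATAAA for the TATA box. This says only that these letters are not in this window.
Cx3cr1: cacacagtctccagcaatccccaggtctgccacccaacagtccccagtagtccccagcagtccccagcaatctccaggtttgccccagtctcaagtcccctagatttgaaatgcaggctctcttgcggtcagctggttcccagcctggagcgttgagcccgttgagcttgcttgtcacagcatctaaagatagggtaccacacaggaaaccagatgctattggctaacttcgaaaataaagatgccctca

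C5ar1, the receptor for the complement fragment C5a, also read lower with ADP. Its levels were 4.58, 4.40 and 4.58 in the controls and 4.03, 4.30 and 4.04 with ADP, so the groups did not overlap and ADP 2 was again the nearest to the controls. The means were 4.52 ± 0.10 and 4.12 ± 0.15 (SD, n = 3 each), a difference of -0.40 ± 0.12 (SE; 95% interval -0.69 to -0.10), or 1.32-fold lower. The limma adjusted p was 0.298. The differences within the slides were -0.46 and -0.40, and the slide block gave -0.43 ± 0.11 with an adjusted p of 0.0954. The probe lies at chr7:16832243-16832302 of mm9.

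Ccr7 guides activated dendritic cells and lymphocytes to lymph nodes through its ligands Ccl19 and Ccl21a, and it had the largest upward difference of the tested receptors. Its signals were 80.9, 122 and 53.9 in the controls and 152, 167 and 198 with ADP, which corresponds to levels of -2.49, -1.93 and -3.35 against -1.58, -1.70 and -1.47. All 3 ADP arrays were above all 3 controls, and the ADP arrays were close together while the controls were widely spread. The means were -2.59 ± 0.71 and -1.58 ± 0.12 (SD, n = 3 each), a difference of 1.00 ± 0.34 (SE; 95% interval 0.19 to 1.82), or 2.01-fold higher. The limma adjusted p was 0.316. Control 3, the lowest array, set much of the size: without it the difference was 0.63, and the values within slides were 0.63 and 1.76. The slide block gave 1.19 ± 0.30 with an adjusted p of 0.0945, and normexp background correction gave 0.62. The probe lies at chr11:99005551-99005610 of mm9. Of 8 dendritic cell markers on the array, 4 were tested, and 1 of them was above 0 and 3 below. Cd209a and Xcr1 were well above background on no array, and the summed level was 38.4 to 142 in the controls and 38.3 to 160 with ADP. Most of that sum was Siglech, with levels of 7.13 to 7.31 on slide 2 and 5.19 to 5.48 on slide 1. As RNA was taken from whole cultures, more cells that carry a receptor and more of its RNA per cell cannot be told apart, here and for the other receptors.

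Ccrl2, an atypical receptor that binds the chemoattractant chemerin (Rarres2) and presents it to other cells without Gi signalling, read higher with ADP by a small amount. Its levels were 0.53, 0.77 and 0.69 in the controls and 0.97, 0.97 and 0.92 with ADP, with no overlap. The means were 0.66 ± 0.13 and 0.95 ± 0.03 (SD, n = 3 each), a difference of 0.29 ± 0.11 (SE; 95% interval 0.03 to 0.55), or 1.22-fold higher. The limma adjusted p was 0.344, the values within slides were 0.32 and 0.26, and the slide block gave 0.29 ± 0.10 with an adjusted p of 0.151. The unadjusted p of 0.0321 in limma passed 0.05 only narrowly: it was 0.0697 with median scaling, 0.0685 with normexp and 0.140 without control 1. The probe lies at chr9:110957397-110957456 of mm9.

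RefSeq gives 3 starts for Ccrl2, and the motif matches differed between them. The window of the most distal start (GRCm38.p6, chr9:111057519-111057768, minus strand) is shown because it alone among the receptors' 10 windows held an NF-kB match, in capitals, 68 to 60 bases before the start. That motif occurs in 4.93% of the 32817 RefSeq windows searched. The windows of the other Ccrl2 starts overlap each other and held 1 CRE core match, a motif found in 6.46% of windows.
Ccrl2: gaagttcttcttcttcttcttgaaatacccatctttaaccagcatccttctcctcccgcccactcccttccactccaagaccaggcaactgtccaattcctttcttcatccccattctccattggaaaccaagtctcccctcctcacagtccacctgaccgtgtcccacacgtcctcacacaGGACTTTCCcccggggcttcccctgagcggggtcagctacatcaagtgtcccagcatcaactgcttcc

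Fpr1 and Fpr2 are receptors for formylated peptides, with Fpr2 also binding Anxa1, Saa3 and Camp products. Their probes lie 16.9 kb apart on chromosome 17, at chr17:18013609-18013668 and chr17:18030540-18030599 of mm9. Fpr1 levels were 7.00, 7.03 and 7.10 in the controls and 7.24, 7.18 and 7.27 with ADP. The groups did not overlap, yet the shift was small, 0.19 ± 0.10 (SE; 95% interval -0.04 to 0.41; limma adjusted p = 0.50), with 0.22 and 0.12 within the slides and 0.17 ± 0.08 with the slide block. Quantile normalization reduced it to 0.05. Fpr2 levels were 4.78, 4.93 and 4.53 in the controls and 5.35, 4.67 and 4.86 with ADP, and only ADP 1 exceeded all controls. Its difference was 0.21 ± 0.21 (SE; 95% interval -0.28 to 0.70; limma adjusted p = 0.740), and without ADP 1 it was 0.01. Within the slides Fpr2 read higher by 0.49 and 0.24, and the slide block gave 0.36 ± 0.11 with an adjusted p of 0.124. Both receptors are also carried by neutrophils. Of 9 neutrophil markers on the array, 6 were tested and all 6 differences were above 0, with a median of 0.19. Only S100a8 reached an unadjusted p below 0.05 in limma. The median was 0.19 within slide 1 and 0.09 within slide 2, where S100a9 (-0.57) and Elane (-0.11) were below 0 and the other tested markers above. The neutrophil markers summed to 40.8 to 42.1 in the controls and 45.5 to 51.7 with ADP, and Ngp and Retnlg were well above background on no array. The part of the neutrophil genes in the Fpr1 and Fpr2 values was not tested.

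Ccr1 and Ccr2, receptors for inflammatory CC chemokines, gave low signals, and their probes lie 145 kb apart at chr9:123877790-123877849 and chr9:124022948-124023007 of mm9. On the control arrays the Ccr1 probe never stood well above background, while it did on 2 of 3 ADP arrays, so it was not tested. Its signals were 9.29, 10.4 and 9.90 in the controls and 17.8, 27.0 and 25.2 with ADP, higher on every ADP array. Set against the dimmest signal of any probe well above background on each control array, the Ccr1 mean with ADP was 1.19-fold higher. That limit is not the probe's own, and not every ADP array stood well above background, so it gives no lower bound. Normexp background correction left a difference of 0.18 in place of 1.14. Ccr2 levels were -3.58, -3.88 and -3.69 in the controls and -4.28, -3.86 and -3.69 with ADP. Only ADP 1 fell outside the range of the controls, and the difference was -0.22 ± 0.18 (SE; 95% interval -0.65 to 0.21; limma adjusted p = 0.684). It was -0.55 within slide 1, -0.08 within slide 2 and -0.31 ± 0.15 with the slide block (adjusted p = 0.277). Without ADP 1 it was -0.054, and with normexp -0.042.

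Cxcr4, the receptor for Cxcl12 that holds leukocytes in the marrow, showed no separation of the groups. Its levels were 2.20, 2.12 and 2.07 in the controls and 1.98, 2.17 and 2.20 with ADP, and the ADP arrays lay on both sides of the controls. The difference was -0.02 ± 0.11 (SE; 95% interval -0.28 to 0.24; limma adjusted p = 0.965), with -0.18 within slide 1, 0.11 within slide 2 and -0.035 with the slide block (adjusted p = 0.861). The probe lies at chr1:130485079-130485138 of mm9.

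**Figure D3:**
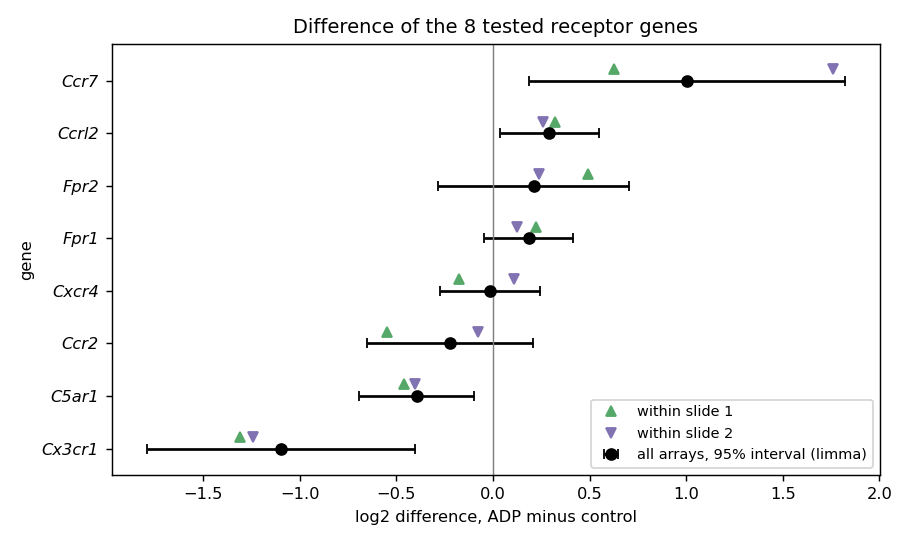
Difference of log2 level, ADP minus control, for the 8 tested receptors; circles with bars are the limma estimate over all arrays with its 95% interval, and triangles are the values within slide 1 and slide 2. The intervals of Ccr7 and Ccrl2 lie above 0 and those of C5ar1 and Cx3cr1 below it, and Cxcr4 has opposite signs in the 2 slides (-0.18 and 0.11).

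The receptors' ligands, which macrophages themselves partly make, were listed as 18 genes, of which 17 were on the array and 16 tested. Of these, 10 differences were above 0 and 6 below, with a median of 0.10, and Hc, set apart below, is among the 10. Of the 15 ligands well above background on all 6 arrays, Cx3cl1 (higher) and Ccl4 (lower) reached an unadjusted p below 0.05 in limma. The share over all features was 12.7%. Cx3cl1, the ligand of Cx3cr1, had levels of -1.14, -1.02 and -1.39 in the controls and -0.54, -0.71 and -0.45 with ADP. Every ADP array was above every control, opposite to its receptor, with a difference of 0.62 ± 0.14 (SE; limma adjusted p = 0.261, and 0.0734 with the slide block). Ccl4, a CC chemokine, read lower by a difference of -0.46 (adjusted p = 0.261). Hc, which encodes complement C5, the precursor of the C5ar1 ligand, stood well above background on the 3 ADP arrays and on no control. It thus entered the test only through the group where it is high, and its test is not read here. Against the control limit used for Ccr1, the Hc mean with ADP was 1.34-fold higher, which again gives no lower bound. Measured differences were 1.53 within slide 1 and 0.43 within slide 2, and 0.22 with normexp in place of 1.00.

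Among the other ligands, Cxcl12 differed by 0.32, Ccl6 by 0.21 and Ccl9 by 0.18, each with all ADP arrays above all controls. Their unadjusted p in limma was 0.0597, 0.0997 and 0.151. The groups did not overlap in 6 of the 16 tested ligands, Hc among them, against 19.4% of all features. Ccl2, the main ligand of Ccr2, differed by -0.01, Ccl7 by 0.09, Ccl8 by -0.10 and Ccl12 by 0.21, with overlap in each. Ccl3 and Ccl5, which are only some of the listed Ccr1 ligands, differed by -0.10 and 0.04, and the Ccr7 ligand Ccl19 by -0.10. The Fpr2 ligand genes Anxa1, Saa3 and Camp differed by -0.05, 0.11 and 0.12. Rarres2, the ligand of Ccrl2, was well above background on no array.

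Of 29 other chemoattractant receptors listed, 28 were on the array, 11 were well above background on no array, and 13 were tested. The median difference was -0.02, with 6 above 0 and 7 below. Of the 13, 12 were well above background on all 6 arrays. The remaining gene, Ccr8, was so on 2 control and 3 ADP arrays. It thus entered the test only through the group where it is high, and it is among the 6 above 0. An unadjusted p below 0.05, reached by 12.7% of all features, was reached by 4 genes, all lower with ADP, among them Gpr183, an oxysterol receptor, at -0.92 (adjusted p = 0.261), the chemokine receptor Cxcr3 at -0.89 (0.294) and the complement C3a receptor C3ar1 at -0.30 (0.370). Gpr183 levels were -2.64, -2.96 and -2.20 in the controls and -3.68, -3.43 and -3.44 with ADP, and Cxcr3 levels were 0.63, 0.39 and 1.14 against -0.43, 0.31 and -0.38. In both genes each ADP array lay below each control, and the slide block gave -1.06 for each. The groups did not overlap in 4 of the 13 genes, against 19.4% of all features. Cxcr3, like Cx3cr1 and C5ar1, had ADP 2 nearest to the controls.

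The 26 genes of receptor coupling and chemotaxis were all measured on all 6 arrays. The median difference was -0.11, with 3 above 0 and 23 below, against 50.8% of all features above 0. An unadjusted p below 0.05 was reached by 2 of the 26 genes, a smaller share than the 12.7% of all features, both lower: Rgs18, which speeds G-protein shut-off, at -0.49 (adjusted p = 0.261), and Pik3cg, the catalytic subunit of phosphoinositide 3-kinase gamma, at -0.52 (adjusted p = 0.273). Rgs18 levels were 1.92, 1.71 and 2.02 in the controls and 1.44, 1.42 and 1.29 with ADP, and Pik3cg levels were 1.48, 1.17 and 1.37 against 0.66, 1.02 and 0.80, without overlap in either. The groups did not overlap in 4 of the 26 genes, a smaller share than the 19.4% of all features. Gnai3, among those 4, read higher with ADP. The median of the list was -0.14 within slide 1, -0.27 within slide 2 and -0.22 with the slide block, and without control 3 it was -0.05.

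**Figure D4:**
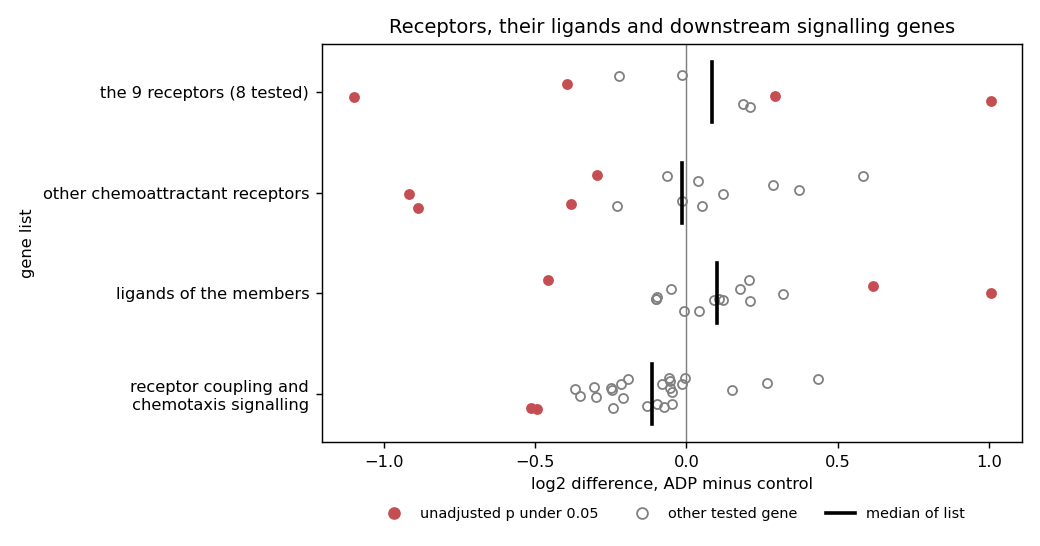
Difference of log2 level, ADP minus control, for the tested genes of 4 lists; each circle is a gene, filled where limma's unadjusted p is below 0.05, and the bar is the list's median. The 8 tested receptors spread to both sides (median 0.08), the filled points of the other chemoattractant receptors all lie below 0, and 23 of the 26 signalling genes lie below 0. The filled ligand point at 1.00 is Hc, whose test is not read.

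The genes whose levels ran most like those of Ccr7 over the 6 arrays, among 12583 named features, were Chd2, Slx4ip and Wwc1, with Pearson r of 0.999, 0.997 and 0.997. Those most like Cx3cr1 were Dach1, Daxx and Klf2, with r of 0.999, 0.999 and 0.998. All points come from the same 6 arrays on 2 slides, and with so many features searched such values describe these arrays only. Klf2, a transcription factor of quiescent leukocytes, differed by -0.70 and Dach1 by -0.64.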

How the data were processed

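RNA from 6 cultures was hybridised as single-colour Cy3 samples to Agilent arrays, and the authors deposited scanner tables made with Agilent Feature Extraction 10.7.1.1, per the submitters' processing notes. Per the file headers, the intensity used is the processed signal, a background-subtracted linear intensity, and probe positions are mm9. The deposited value table holds the same intensities without scaling. Levels were log2 intensities minus each array's 75th percentile. Probes well above background on all 3 arrays of a group were kept (26586 of 55681), 1 per gene (the brightest), and tested with limma 3.58.1 in R 4.3.3, checked on simulated data. Symbols came from the RefSeq table of GRCm38.p6. Upstream sequences (250 bases) matched 8 of the 9 receptors, not Ccr7. No mm9 annotation was used, so exon and UTR positions of probes are not given. Named genes were all 9 receptors, the list genes at an unadjusted p below 0.05 (up to 5 in each direction), the measured ligands, the brightest marker of each list and the 3 genes most alike in level. Further list genes are named where they describe or limit a list. Of the list genes, 1 that met this rule is not reported here. The members and lists were chosen with earlier results of these data known. Alternatives covered background correction, scaling, filters, probe choice, slide, variance model, replicate block and leaving out each array. The labels do not say that equal replicate numbers mark one experiment, so they were not used as pairs. Deviations of same-numbered arrays correlated at 0.42 and 0.43 for the pairs that share a slide and at -0.40 for the pair that does not. By these deviations, controls 1 and 2 were both most like ADP 1, and control 3 was most like ADP 2, each on its own slide. The part of pairing beside the slide was not tested.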

Additional observations from a re-analysis of the deposited data

How the results depend on the processing

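At an adjusted p of 0.05, 0 features passed under every alternative run except the slide block with trended, robust variances, which passed 1939 (885 higher, 1054 lower). At an unadjusted p of 0.05 the count of 2491 became 1554 with the unscaled value table (1228 higher, 326 lower), 4758 with the slide block, 5110 with the slide block and trended, robust variances, and 1163 (without ADP 3) to 2983 (without ADP 1) on leaving out 1 array, 1381 without control 1. The count of 4 receptors became 2 with the value table and 1 (without ADP 3) to 4 on leaving out 1 array, being 2 without control 1 and 2 without ADP 1. The replicate block gave 2494 features and 3 receptors, Ccrl2 having an unadjusted p of 0.0522. Cxcr4 changed sign to 0.062 with the value table and 0.11 within slide 2, and leaving out 1 array gave -0.056 (without ADP 3) to 0.051 (without ADP 1), with 0.017 without control 1; the cause was not tested. The other tested receptors kept their direction under all alternatives run. With 3 arrays a group, small differences lie within the intervals, and Ccr1 was too dim for a tested value.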

Other observations

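Markers of cells other than macrophages varied in brightness. Mean levels over the 6 arrays were 6.26 for Siglech, 4.51 for S100a8, 4.39 for Ly6c1 and 3.04 for Col1a2. The macrophage markers lay between 2.57 (Mertk) and 8.63 (Csf1r), while Ngp, Retnlg, Cd209a and Xcr1 were well above background on no array. The brightest monocyte marker was Ly6c1, and the 4 monocyte markers summed to 21.6 to 30.2 in the controls and 21.4 to 23.0 with ADP, with control 3 the highest. Of these 4, 3 differences were above 0, with a list median of 0.11, and Gpr141 read higher by 0.30 without overlap (limma adjusted p = 0.308). Of the neutrophil markers, S100a8 was the brightest and read higher by 0.32 with ADP (limma adjusted p = 0.345), with 0.14 within slide 1 and 0.46 within slide 2. Lymphocyte markers summed to 0.611 to 1.09 against 0.528 to 1.32, with Cd3e the brightest and Cd3d, Ms4a1 and Ncr1 well above background on no array. Of 4 mast cell markers only Tpsb2 was measured, with a difference of 0.84 that was 1.83 within slide 1, where ADP 1 is the only ADP array, and 0.057 within slide 2, and fibroblast markers, led by Col1a2, summed to 11.7 to 12.9 against 12.3 to 13.6. Among the macrophage markers, Csf1r differed by 0.40 over all arrays but by 0.13 within each slide and with the slide block. Cd14 differed by 0.79 (0.68 and 1.06 within the slides) and Mertk, a receptor for apoptotic cell uptake, by -0.61 (-0.57 and -0.84).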
